A study of Rattus norvegicus with 6 samples.

Results

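The 10 genes described here build the thick filament and the M-band of the heart muscle sarcomere: the myosin heavy chains Myh6, Myh7 and Myh7b, the myosin light chains Myl2, Myl3, Myl4 and Myl7, the cardiac myosin-binding protein C Mybpc3, and the myomesins Myom1 and Myom2. They were taken by gene symbol from a table of 34257 genes, and each of the 10 had exactly 1 row. All 10 passed the filter on low values (at least 1 FPKM in at least 3 libraries), as did 13460 genes in all. FPKM scales fragments to gene length and to library size. Levels can be compared between genes and between libraries only as far as the deposited gene lengths and scaling hold. The cells were neonatal rat ventricular cardiomyocytes, primary cells that were isolated from the ventricles of newborn rats. Cultures received vehicle (3 libraries) or 1 µM perhexiline for 24 h (3 libraries). Perhexiline, used against angina, blocks the carnitine-dependent entry of fatty acids into mitochondria. The sources used here do not say whether the 3 replicates of a group were separate cultures or pools of animals. All p-values therefore speak of the spread among the 6 libraries, part or all of which may be technical.

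A thick filament is a bundle of myosin molecules, each with a pair of heavy chains whose heads pull on actin, and each head carries an essential and a regulatory light chain. The alpha heavy chain, encoded by Myh6, cycles faster than the beta heavy chain, encoded by Myh7. In rodents Myh6 dominates the ventricle after birth under the influence of thyroid hormone, while Myh7 marks the fetal and the stressed heart. Myosin-binding protein C sits along the filament and tunes the heads, and myomesins tie neighbouring filaments together at the M-band in the middle of the sarcomere.

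With perhexiline, Myh6, Myl2 and Myom1 fell to 0.756, 0.771 and 0.660 times their vehicle means, and no member was called higher. Myh7 and Myom2, the counterparts of Myh6 and Myom1, stood at 0.986 and 1.01 times their vehicle means and did not pass the test. The Myh6 to Myh7 ratio was 4.79 ± 0.400 with vehicle and 3.67 ± 0.329 with perhexiline, and the Myom2 to Myom1 ratio was 1.05 ± 0.0545 and 1.61 ± 0.109 (mean ± SD, n = 3 libraries per group, as throughout). Both ratios had an exact permutation p of 0.1 (two-sided), the smallest possible here, and 0.2 after adjustment over the 4 ratios examined. Of the 10 members, 3 were called lower, 0 higher and 7 neither, by limma at a Benjamini-Hochberg adjusted p of 0.05 over all 13460 genes. Over the 6 fits that leave out 1 library, the calls of Myh6, Myl2 and Myom1 held in 1, 2 and 3 fits. Of all tested genes 6.66% were called, 3.11% lower and 3.55% higher. In 4 members (Myh6, Myh7b, Myl2 and Myom1) every perhexiline library lay below every vehicle library, and in 0 every perhexiline library lay above, against 14.9% and 17.0% of all tested genes. The median log2 difference of the members was -0.32, beside 0.01 for all tested genes, and 9 of the 10 differences were below 0.

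**Figure D1:**
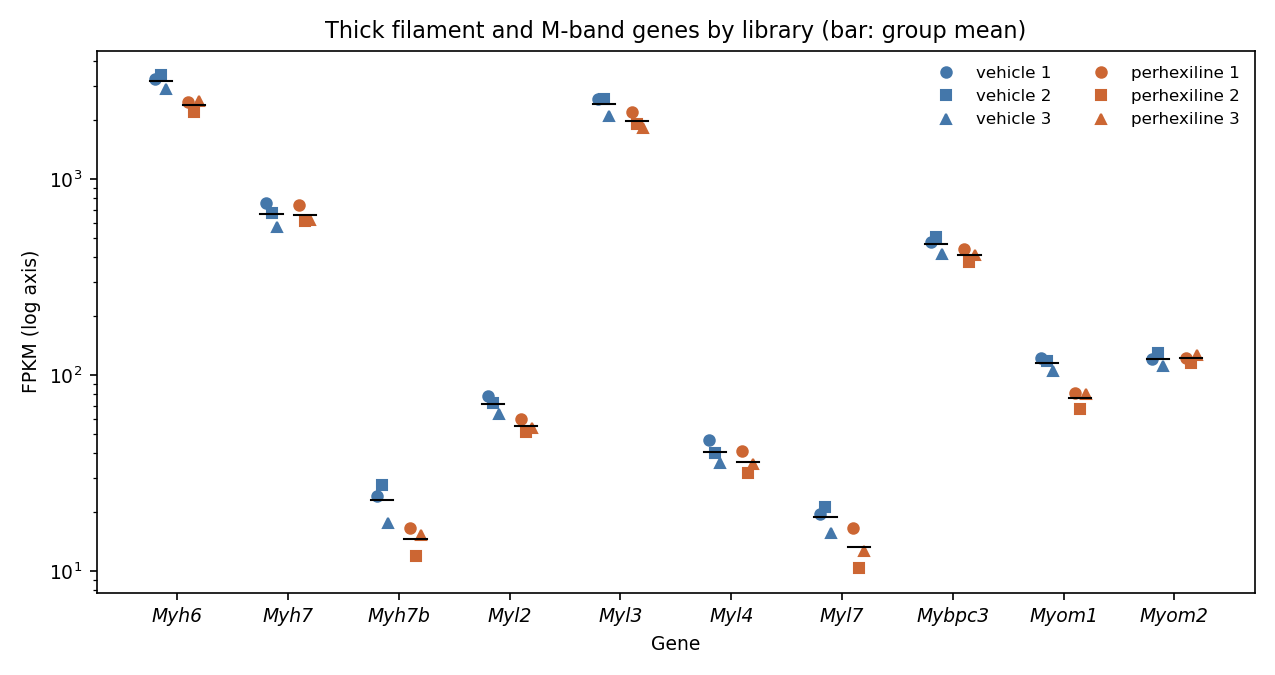
FPKM of each member (log axis) in the 3 vehicle libraries (blue) and the 3 perhexiline libraries (orange), with a circle, square and triangle for replicates 1, 2 and 3 and a bar at each group mean. Myh6 and Myl3 lie above 1834 FPKM in every library, and Myh7b and Myl7 below 27.5.

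The levels spanned a wide range. In vehicle libraries the order ran from Myh6 (3169.5 ± 268 FPKM) and Myl3 (2413 ± 265) through Myh7 (666 ± 91.8) and Mybpc3 (465 ± 47.5) to Myom2 (121 ± 8.78), Myom1 (116 ± 9.15), Myl2 (71.3 ± 7.21), Myl4 (40.8 ± 5.62), Myh7b (23.2 ± 5.00) and Myl7 (18.9 ± 2.90). Only the neighbours Myom2 and Myom1, and Myh7b and Myl7, overlapped in range among the vehicle libraries. The order of means was the same with perhexiline, but there Myom2 lay above Myom1 in all 3 libraries with no overlap, while Myh7b and Myl7 still overlapped. Together the 10 genes took 2.62% to 3.04% of all fragments in vehicle libraries and 2.24% to 2.53% in perhexiline libraries, from depths of 13616252 to 16702523 fragments per library. Precision differed between members: a library held 209239 to 311735 fragments of Myh6 but 337 to 673 of Myl7, 388 to 528 of Myl2 and 395 to 567 of Myl4.

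Myh6, the alpha heavy chain, stood at 3258, 3382 and 2868 FPKM in vehicle replicates 1, 2 and 3 and at 2478, 2209.7 and 2499 FPKM in perhexiline replicates 1, 2 and 3. All 3 perhexiline libraries lay below the lowest vehicle library. Myh6 fell by 0.40 ± 0.087 on the log2(FPKM + 1) scale (± SE; limma adjusted p = 0.039). Its gene spans chromosome 15 from 33605654 to 33629699 on the minus strand, in the coordinates of the deposited table. Its build is unnamed in the sources used here. The call was lost in 5 of the 6 fits that leave out 1 library, with adjusted p = 0.127 and 0.12 on leaving out vehicle replicates 1 and 2 in turn and 0.0538, 0.133 and 0.0998 on leaving out perhexiline replicates 1, 2 and 3 in turn, and it was lost with no filter on low values (0.177). The log2 difference stayed between -0.47 and -0.35 in all alternatives.

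Myh7, the beta heavy chain, lies 4722 bases from Myh6 in the same orientation (chromosome 15, 33634422 to 33656089). It stood at 753, 676 and 569.9 FPKM in vehicle replicates 1, 2 and 3 and at 738, 609 and 623 FPKM in perhexiline replicates 1, 2 and 3. The groups overlapped, with the highest and the lowest library both in the vehicle group. The log2 difference of Myh7 was -0.02, with a 95% interval of -0.28 to 0.25 (adjusted p = 0.944), which includes changes of either sign. Its sign turned with total-fragment scaling (0.04), and on leaving out vehicle replicate 1 (0.08), the perhexiline replicates 2 (0.03) or 3 (0.02). Myh6 and Myh7 are close paralogs. The sources used here do not say how reads shared by both were counted, and their split carries that uncertainty.

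Because both genes were measured in the same libraries, their ratio does not depend on library scaling. Myh6 to Myh7 was 4.33, 5.01 and 5.03 in vehicle replicates 1, 2 and 3 and 3.36, 3.63 and 4.01 in perhexiline replicates 1, 2 and 3. Every perhexiline ratio lay below every vehicle ratio. The log2 ratio differed by -0.39 ± 0.10 (SE), 0.765-fold, with an exact permutation p of 0.1 (two-sided), the smallest that 3 against 3 libraries can give, and 0.2 after Benjamini-Hochberg adjustment over the 4 isoform ratios examined. Expressed as a share, Myh6 made up 80.7% to 83.0% of the summed heavy chain FPKM in vehicle libraries and 76.7% to 79.7% in perhexiline libraries, and Myh7 17.2% ± 1.24 and 21.4% ± 1.49. The summed heavy chain level was 3859 ± 350 FPKM in vehicle and 3067 ± 210 FPKM in perhexiline libraries, with no overlap. Most of this difference in the sum came from Myh6, since Myh7 stood at 666 and 657 FPKM.

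**Figure D2:**
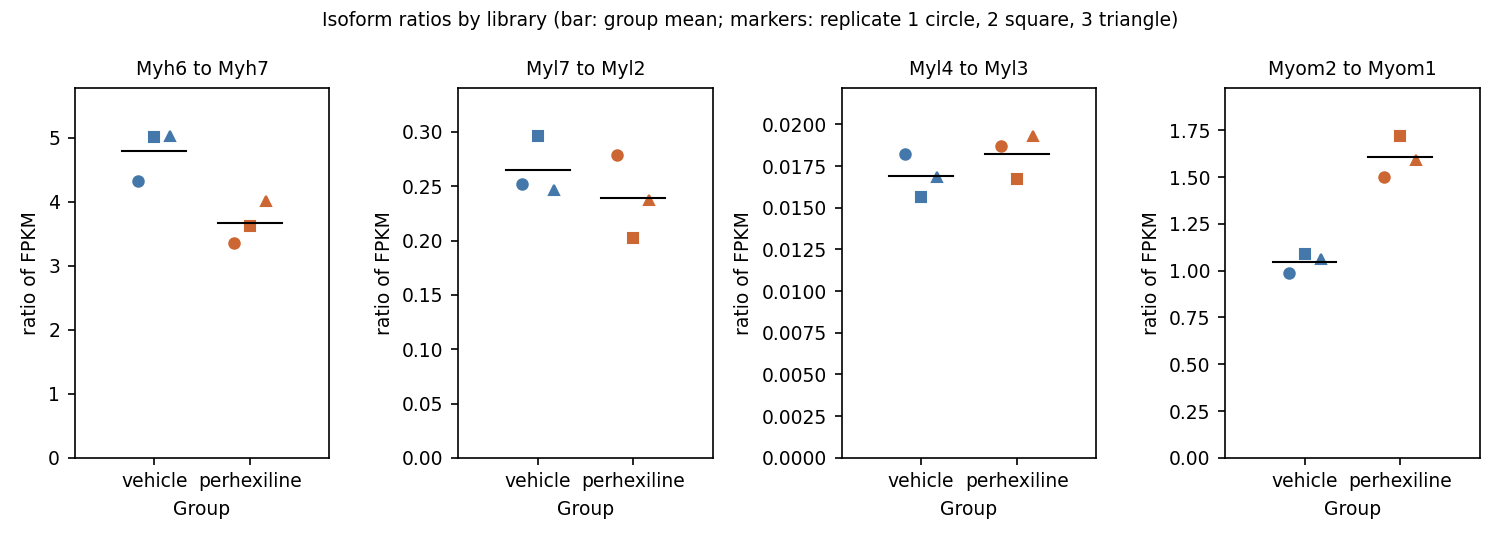
Ratio of FPKM for 4 isoform pairs in each library, with axes from 0, vehicle in blue, perhexiline in orange, replicates 1, 2 and 3 as circle, square and triangle, and a bar at each group mean. The groups do not overlap for Myh6 to Myh7 (lower with perhexiline) and Myom2 to Myom1 (higher), and overlap for Myl7 to Myl2 and Myl4 to Myl3.

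Myh7b, a slow heavy chain gene that hosts a microRNA and makes little protein in the mammalian heart, contributed 0.423% to 0.672% of the heavy chain FPKM. It stood at 24.4, 27.5 and 17.7 FPKM in vehicle replicates 1, 2 and 3 and at 16.6, 12.0 and 15.4 FPKM in perhexiline replicates 1, 2 and 3. The perhexiline libraries all lay below the vehicle libraries, by a narrow gap to vehicle replicate 3. The log2 difference of -0.62 ± 0.17 (SE), the most negative among the members, did not pass (adjusted p = 0.0717). Myh7b passed without vehicle replicate 3 (0.0308), with a mean FPKM of at least 5 as the filter (0.0479) and with limma-voom (0.0204), run on fragments recovered from the FPKM steps.

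The region just upstream of the RefSeq start of each neighbouring heavy chain gene is shown. The genes sit side by side, and the ratio of their levels did not overlap between the groups. The 250 bases before the annotated start are from RefSeq (GRCr8, minus strand, chr15:32411698-32411947 for Myh6 and chr15:32438195-32438444 for Myh7), read 5′ to 3′ in the gene's direction. That start need not be the one used in these cells. Positions in the deposited coordinates and in GRCr8 were compared through the hairpin genes Mir3546 and Mir208b, described below. By their shift, the deposited Myh6 span reaches into the Myh6 window. The part of that window nearest the start, with its marked matches, thus lies inside the measured Myh6 gene. The Myh7 window lies just outside the deposited Myh7 span. Capitals mark the M-CAT element CATTCC, a motif of TEAD factors, and the E-box CANNTG, a motif of basic helix-loop-helix factors, searched on both strands with no overlap between the matches.
Myh6: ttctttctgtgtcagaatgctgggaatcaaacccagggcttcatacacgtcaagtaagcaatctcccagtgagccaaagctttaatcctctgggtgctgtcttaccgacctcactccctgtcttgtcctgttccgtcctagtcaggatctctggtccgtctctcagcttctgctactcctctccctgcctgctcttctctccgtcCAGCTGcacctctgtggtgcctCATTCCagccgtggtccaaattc
Myh7: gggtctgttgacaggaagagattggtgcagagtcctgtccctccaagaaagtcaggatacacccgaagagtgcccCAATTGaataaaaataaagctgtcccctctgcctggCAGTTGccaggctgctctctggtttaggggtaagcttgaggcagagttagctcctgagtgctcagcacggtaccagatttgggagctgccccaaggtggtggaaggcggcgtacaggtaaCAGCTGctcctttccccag
Of all 33469 RefSeq windows from 250 bases before to 50 after a start, 14.2% hold the M-CAT element and 72.1% an E-box. MEF2, CArG, GATA, TATA and thyroid hormone half-site letters were searched too, and each occurs in 1.64% to 16.2% of windows. None of them matched in the Myh6 or Myh7 window. The matches describe the letters and say nothing of binding in these cells.

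Other rows of the table overlap Myh6 and Myh7, and they were looked up by position after the table was seen. Mir208b is the hairpin gene of a microRNA inside Myh7, on the same strand, with 112 bases. Its row stood at 38.3, 35.04 and 33.2 FPKM in vehicle replicates 1, 2 and 3 and at 16.5, 19.3 and 21.5 FPKM in perhexiline replicates 1, 2 and 3. The groups were far apart, on 52 to 60 fragments per vehicle library and 32 to 42 per perhexiline library. The Mir208b row fell by 0.87 ± 0.099 on the log2(FPKM + 1) scale (limma adjusted p = 0.00932), to 0.538 times its vehicle mean, and passed in all 14 alternatives run. Per 100 FPKM of Myh7, the Mir208b row held 5.37 ± 0.401 FPKM with vehicle and 2.95 ± 0.637 with perhexiline, with no overlap between the groups.

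Mir3546 is a hairpin gene of 116 bases on the strand opposite to Myh6, and in RefSeq its sequence contains the reverse complement of the whole 83-base hairpin of Mir208a, the microRNA inside Myh6. Its row stood at 28.2, 45.7 and 25.3 FPKM in vehicle replicates 1, 2 and 3 and at 14.9, 11.5 and 10.9 FPKM in perhexiline replicates 1, 2 and 3. Vehicle replicate 2 was well above the other vehicle libraries, and all perhexiline libraries were below every vehicle library. The Mir3546 row fell by 1.31 ± 0.21 (SE) on the log2(FPKM + 1) scale (limma adjusted p = 0.022), on 41 to 81 fragments per vehicle library and 21 to 30 per perhexiline library. The call was lost without vehicle replicate 1 (adjusted p = 0.0634), perhexiline replicate 2 (0.0802) or perhexiline replicate 3 (0.0813), and with no filter on low values (0.0656).

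A pair of unnamed protein-coding models on the opposite strand, AC115371.1 within Myh6 and AC130940.1 reaching into Myh7 over 3507 bases, did not pass. AC115371.1 averaged 37.9 ± 13.3 FPKM in vehicle and 17.8 ± 2.67 FPKM in perhexiline libraries (adjusted p = 0.0562), and AC130940.1 at 7.36 ± 2.59 and 3.78 ± 0.682 (adjusted p = 0.1). Libraries were made with a strand-marking kit, but the sources used here do not say whether counting used the strand. Fragments of Myh6 or Myh7 and of a row on the other strand therefore cannot be told apart, and fragments on a hairpin row may belong to longer RNA, since selection on oligo(dT) does not capture mature microRNAs.

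**Figure D3:**
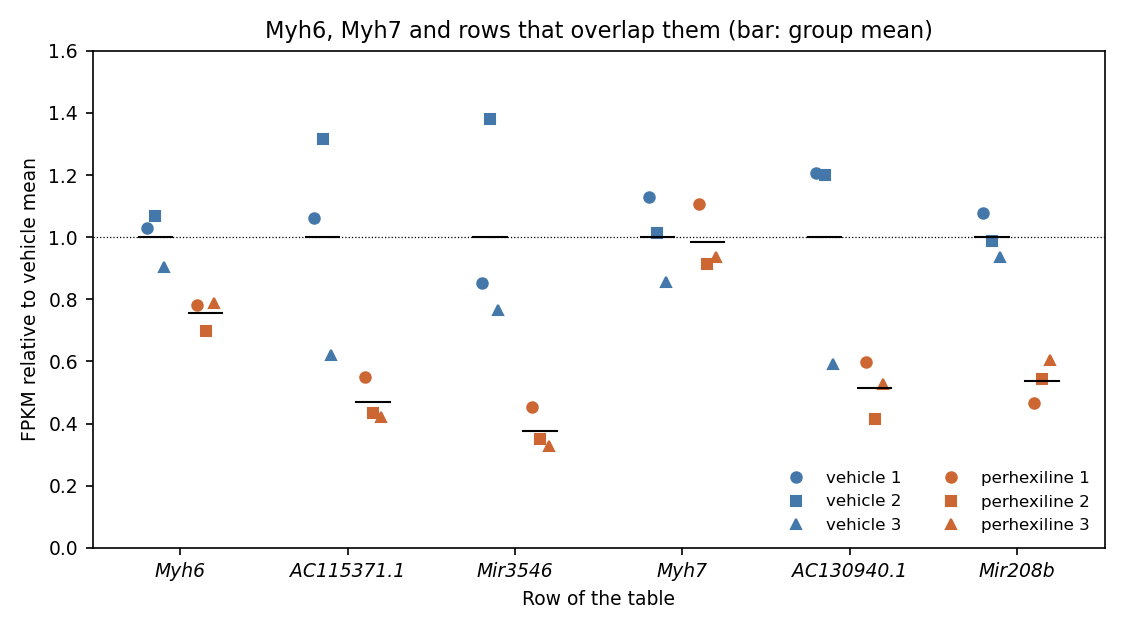
FPKM of Myh6, Myh7 and the rows that overlap them, divided by each row's vehicle mean, with vehicle in blue, perhexiline in orange and a bar at each group mean. With perhexiline the Mir3546 and Mir208b rows averaged 0.377 and 0.538 times their vehicle means, beside 0.756 for Myh6 and 0.986 for Myh7.

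The hairpins are printed from RefSeq (GRCr8) because their rows fell. In the Mir208b hairpin (minus strand, chr15:32421615-32421726) capitals mark the mature 3p arm, and in the Mir3546 hairpin (plus strand, chr15:32395536-32395651) they mark the reverse complement of the Mir208a hairpin.
Mir208b hairpin: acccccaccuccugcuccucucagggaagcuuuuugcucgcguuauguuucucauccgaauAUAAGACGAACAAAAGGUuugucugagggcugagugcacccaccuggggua
Mir3546 hairpin: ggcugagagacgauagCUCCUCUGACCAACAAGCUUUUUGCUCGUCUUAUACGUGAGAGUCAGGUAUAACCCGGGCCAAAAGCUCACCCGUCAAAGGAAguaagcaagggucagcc
The mature microRNAs carried by the 3 heavy chain genes are shown with the seed, bases 2 to 8, in capitals.
rno-miR-208a-3p: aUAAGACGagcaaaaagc
rno-miR-208b-3p: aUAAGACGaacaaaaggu
rno-miR-499-5p: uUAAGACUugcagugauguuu
The first and second of them share the seed UAAGACG, and over 18 bases they differ by G10A, A16G and C18U (208a base, position from the 5′ end, 208b base). The seed of miR-499-5p, which lies inside Myh7b, differs from theirs by G8U (208a base first). The hairpin row of miR-499, named Mir499a, held 1 fragment in perhexiline replicate 2 and 0 in the other 5 libraries, so its level could not be read at this depth.

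The light chains come as ventricular and atrial isoforms. Myl2, the ventricular regulatory light chain, stood at 78.1, 71.9 and 63.8 FPKM in vehicle replicates 1, 2 and 3 and at 59.7, 51.5 and 53.7 FPKM in perhexiline replicates 1, 2 and 3. The groups did not overlap. Myl2 fell by 0.37 ± 0.086 on the log2(FPKM + 1) scale (limma adjusted p = 0.0487). The call was lost without vehicle replicate 1 (adjusted p = 0.133), vehicle replicate 2 (0.13), perhexiline replicate 2 (0.158) or perhexiline replicate 3 (0.139), with a pseudocount of 0.1 (0.0505) and with no filter on low values (0.11). Its row stood at 2.69 to 3.04 FPKM per 100 FPKM of the essential light chain Myl3 over the 6 libraries, although both chains belong to the same ventricular myosin. The deposited Myl2 model has 480 bases, and whether fragments fell outside it or were lost by matching elsewhere was not tested.

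Myl7, the atrial regulatory light chain that young ventricles also express, stood at 19.7, 21.3 and 15.7 FPKM in vehicle replicates 1, 2 and 3 and at 16.7, 10.4 and 12.8 FPKM in perhexiline replicates 1, 2 and 3. Perhexiline replicate 1 lay above vehicle replicate 3, so the groups overlapped. Its log2 difference was -0.49 ± 0.17 (SE; adjusted p = 0.122), and it passed only without perhexiline replicate 1 (0.0495). The Myl7 to Myl2 ratio was 0.265 ± 0.0275 with vehicle and 0.24 ± 0.0385 with perhexiline, with overlapping groups (exact permutation p = 0.4, two-sided). The deposited Myl7 model has 2064 bases, beside 480 for Myl2, and the ratio depends on both lengths. In fragments, vehicle replicates 1, 2 and 3 held 559, 673 and 453 of Myl7 and 516, 528 and 428 of Myl2. Perhexiline replicates 1, 2 and 3 held 595, 337 and 459 of Myl7 and 496, 388 and 449 of Myl2.

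Myl3, the ventricular essential light chain, stood at 2567, 2564 and 2107 FPKM in vehicle replicates 1, 2 and 3 and at 2201, 1913 and 1834 FPKM in perhexiline replicates 1, 2 and 3. The groups overlapped through vehicle replicate 3. The log2 difference was -0.28 with a 95% interval of -0.52 to -0.04 (adjusted p = 0.144). Myl4, the atrial and fetal essential light chain, stood at 46.7, 40.1 and 35.5 FPKM in vehicle replicates 1, 2 and 3 and at 41.2, 31.9 and 35.4 FPKM in perhexiline replicates 1, 2 and 3. Its groups overlapped widely, and its log2 difference was -0.17 with an interval of -0.44 to 0.11 (adjusted p = 0.414). The Myl4 to Myl3 ratio was 0.0169 ± 0.00127 with vehicle and 0.0182 ± 0.00137 with perhexiline (exact permutation p = 0.3, two-sided). Neither the atrial to ventricular ratio of the regulatory nor that of the essential light chains thus differed beyond the spread between libraries.

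**Figure D4:**
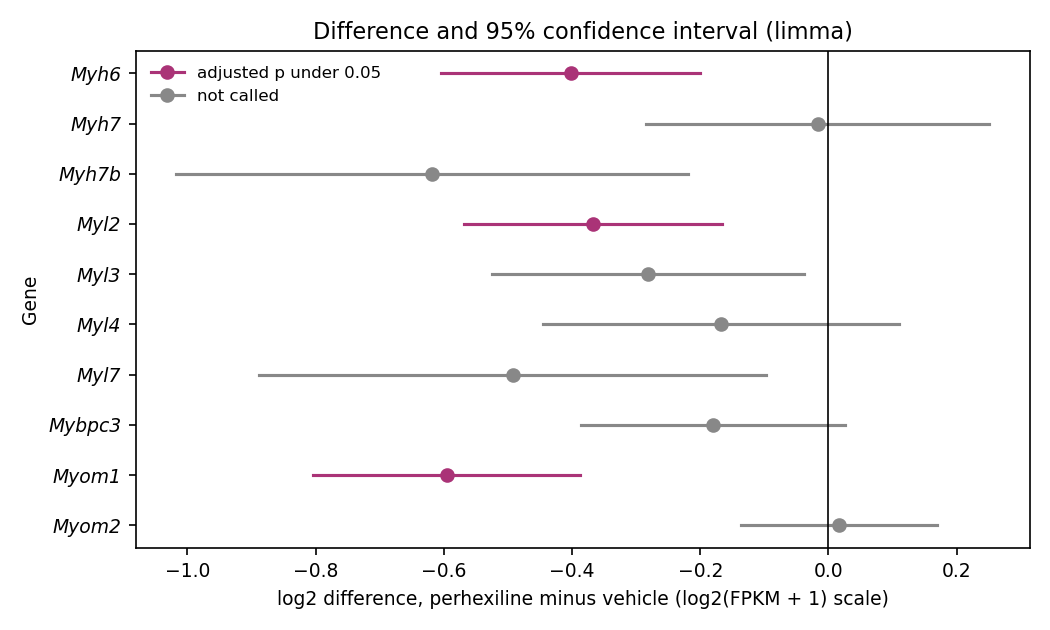
Log2 difference of each member between perhexiline and vehicle on the log2(FPKM + 1) scale, with its 95% confidence interval from limma, in purple where the adjusted p is under 0.05 and grey otherwise. The intervals of Myh6, Myl2 and Myom1 lie below 0, as do those of Myh7b, Myl3 and Myl7, which were not called after adjustment over all genes.

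Mybpc3, the cardiac myosin-binding protein C, stood at 477, 506 and 413 FPKM in vehicle replicates 1, 2 and 3 and at 440.4, 379 and 411 FPKM in perhexiline replicates 1, 2 and 3. The groups overlapped through vehicle replicate 3. The log2 difference was -0.18 with a 95% interval of -0.39 to 0.03 (adjusted p = 0.247). Per 100 FPKM of summed heavy chains, Mybpc3 held 12.1 ± 0.300 FPKM with vehicle and 13.4 ± 0.264 with perhexiline. On this measure the groups did not overlap (exact permutation p = 0.1, two-sided, the smallest possible). The summed heavy chains, the divisor, were themselves lower with perhexiline, as was the mean of Mybpc3. Myl3 on the same measure held 62.5 ± 1.35 FPKM with vehicle and 64.7 ± 5.41 with perhexiline, with overlapping groups (exact permutation p = 0.5, two-sided).

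Myom1, the myomesin of all striated muscle, stood at 123, 119 and 105 FPKM in vehicle replicates 1, 2 and 3 and at 81.7, 67.3 and 80.02 FPKM in perhexiline replicates 1, 2 and 3. Every perhexiline library lay well below every vehicle library. Myom1 fell by 0.60 ± 0.089 on the log2(FPKM + 1) scale (limma adjusted p = 0.0189), the smallest p among the members. Its call was lost without vehicle replicate 1 (adjusted p = 0.0667), vehicle replicate 2 (0.0682) or perhexiline replicate 3 (0.0612) and with no filter on low values (0.0559). Per 100 FPKM of summed heavy chains Myom1 held 2.90 to 3.05 FPKM in vehicle and 2.38 to 2.55 FPKM in perhexiline libraries (exact permutation p = 0.1, two-sided).

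Myom2, the myomesin that appears as the heart matures and in fast muscle, stood at 121, 129 and 112 FPKM in vehicle replicates 1, 2 and 3 and at 123, 116 and 127 FPKM in perhexiline replicates 1, 2 and 3. The groups overlapped fully. The log2 difference of 0.02, with a 95% interval of -0.14 to 0.17 (adjusted p = 0.905), changed sign with upper-quartile scaling and without vehicle replicate 3 or perhexiline replicate 3. The Myom2 to Myom1 ratio was 0.985, 1.09 and 1.06 in vehicle replicates 1, 2 and 3 and 1.503, 1.72 and 1.59 in perhexiline replicates 1, 2 and 3. The groups were separated by a gap larger than the range within either of them. The log2 ratio differed by 0.62 ± 0.072 (SE), 1.53-fold, with an exact permutation p of 0.1 (two-sided), the smallest possible here, and 0.2 after adjustment over the 4 ratios.

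The members also varied together within a group. In vehicle replicate 3 all 10 lay below their vehicle mean (median -0.18 on the log2 scale), in perhexiline replicate 2 all 10 lay below their perhexiline mean (-0.11), and in perhexiline replicate 1 all 10 lay above it (0.14). Over all tested genes the median of the same deviations was between -0.01 and 0.01 in every library. The 11 tested thin filament genes did likewise, with all 11 below the group mean in vehicle replicate 3, 10 of 11 below it in perhexiline replicate 2 and all 11 above it in perhexiline replicate 1. Genes outside the sarcomere shared part of this: all 9 tested leukocyte markers and all 7 tested nonmuscle and smooth muscle myosin genes lay above their group mean in perhexiline replicate 1 and below it in perhexiline replicate 2, as did 8 of 9 smooth muscle markers in each. In vehicle replicate 3, 6 of 9, 6 of 7 and 7 of 9 of these lists lay below it. Of the 10 fibroblast markers 4 lay below it in vehicle replicate 3, 6 in perhexiline replicate 1 and 7 in perhexiline replicate 2.

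**Figure D5:**
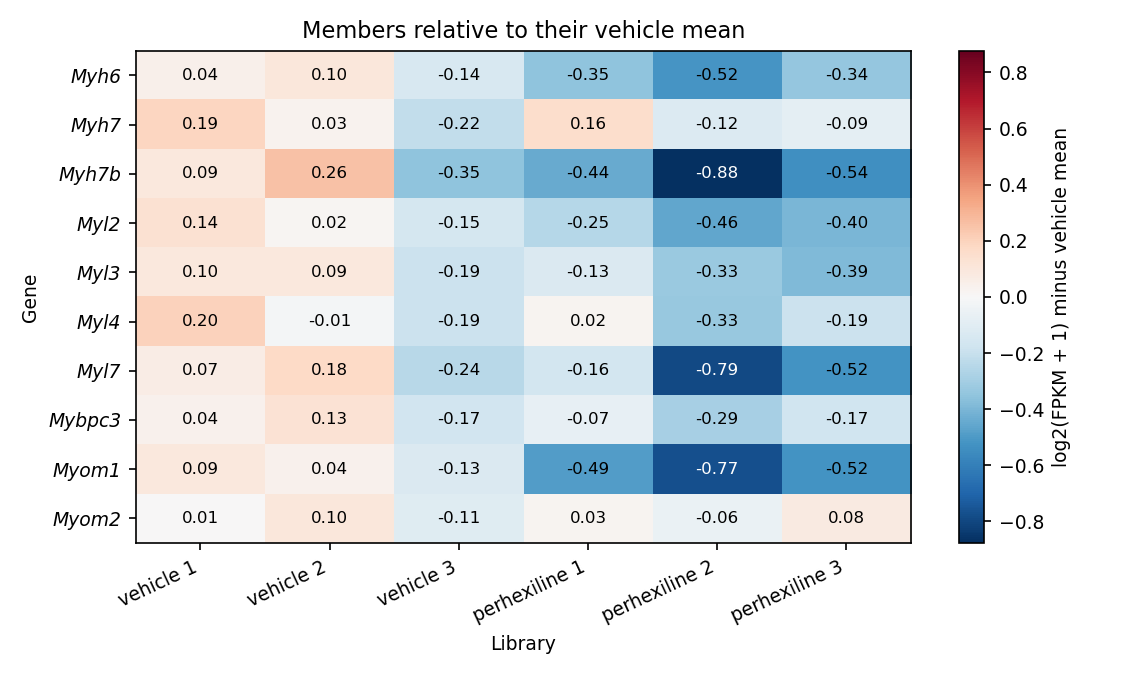
Log2(FPKM + 1) of each member (rows) in each library (columns) minus its vehicle mean, with blue for lower and red for higher values. Myh6, Myh7b, Myl2 and Myom1 are lower in the 3 perhexiline libraries than in any vehicle library, and vehicle replicate 3 is the lowest vehicle library for all 10 genes.

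RNA of a whole culture does not tell fewer cardiomyocytes from less RNA per cardiomyocyte. The cardiomyocyte marker Tnnt2 stood at 3658 FPKM with vehicle and 3030 FPKM with perhexiline (adjusted p = 0.0981). Of other genes that mark cardiomyocytes, Tnni3 and Actn2 were called lower (limma adjusted p = 0.0373 and 0.0294). Actc1 was lower in mean and did not pass (adjusted p = 0.0661). Nkx2-5 was higher in mean and did not pass either (adjusted p = 0.515). Myh6 and Mybpc3 also mark cardiomyocytes, but as members they give no separate measure here. Values of the further markers Ryr2 and Pln are not given here. Of 10 fibroblast markers, Dcn and Pdgfra were called higher (1.44-fold and 1.35-fold) and Col3a1 lower (0.785-fold). The list's summed level was 1425 to 1489 FPKM in vehicle and 1443 to 1521 FPKM in perhexiline libraries. Of 9 tested leukocyte markers, Mrc1 and C1qa were called lower (0.448-fold and 0.542-fold), and all 9 differences were below 0. The list's sums were 96.1 to 101 and 52.6 to 80.5 FPKM. None of the 9 smooth muscle markers passed, with sums of 815 to 1150 and 629 to 827 FPKM and with Acta2 at 697 and 464 FPKM (adjusted p = 0.0871) and Tagln at 199 and 155 FPKM (adjusted p = 0.0763). None of the 6 tested endothelial markers passed, with sums of 19.6 to 22.9 and 21.5 to 23.1 FPKM and Kdr and Egfl7 at up to 9.70 FPKM on average. Of 9 tested atrial markers Kcnj3 alone was called, and lower (0.551-fold). Pam, Sln, Dkk3 and Tbx5 (0.843-fold, 0.721-fold, 0.862-fold and 0.772-fold) were not called, although every perhexiline library lay below every vehicle library. That held for 14.9% of all tested genes. Of the 9 differences 7 were below 0 and 2 above. No marker of these lists that the table holds was at 0 in all libraries, and the part of other cell types in the members' values was not tested.

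Genes around the members were taken from lists. In the counts for these lists, fell and rose mean called lower and called higher. Among 6 tested other sarcomeric myosin, C-protein and M-band genes, 1 fell and 0 rose: Ckm, the muscle creatine kinase that docks at the M-band, from 190.4 ± 14.4 to 133 ± 12.1 FPKM (adjusted p = 0.0207). The skeletal and embryonic heavy chains Myh1, Myh3 and Myh8 did not reach the filter.

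Of 12 genes of myosin folding and turnover, 3 were called lower and 0 higher, while 7 of the 12 differences were above 0. Fbxo32 and Nbr1 (1.23-fold and 1.09-fold) did not pass, although every perhexiline library lay above every vehicle library. That held for 17.0% of all tested genes. Unc45b, the chaperone that folds the myosin head, went from 103 ± 3.41 to 85.7 ± 4.64 FPKM (adjusted p = 0.0373). Smyd1, a muscle methyltransferase that works with it, went from 96.7 ± 2.91 to 73.5 ± 8.64 FPKM (adjusted p = 0.0369). Trim55, the ubiquitin ligase MuRF2 of the M-band region, went from 118 ± 11.2 to 79.4 ± 7.34 FPKM (adjusted p = 0.0205). Its relatives Trim54 and Trim63 stood at 158 and 188 FPKM and at 84.6 and 83.5 FPKM and did not pass, and the list's median log2 difference was 0.05.

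Of 11 tested genes that act on light chain and C-protein phosphorylation, 3 fell and 0 rose, with a median of -0.18. Mylk3, the cardiac myosin light chain kinase, went from 180.4 ± 4.47 to 147 ± 4.29 FPKM (adjusted p = 0.0199). Ppp1r12b, a targeting subunit of the opposing phosphatase, went from 51.5 ± 0.977 to 37.6 ± 4.46 FPKM (adjusted p = 0.029). Prkaca, the catalytic subunit of the protein kinase A that phosphorylates Mybpc3, went from 123 ± 7.13 to 97.2 ± 7.57 FPKM (adjusted p = 0.0371). None of the 7 tested nonmuscle and smooth muscle myosin genes passed, although 6 of their 7 differences were below 0. Among them Myl9 stood at 495 and 321 FPKM (adjusted p = 0.0534) and Myl12a at 554 and 466 FPKM (adjusted p = 0.0979).

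Of 23 transcription factors and cofactors known to act on myosin genes, 2 fell and 0 rose, with a median of -0.12. Thra, the thyroid hormone receptor alpha through which the hormone raises Myh6, went from 28.8 ± 1.32 to 23.1 ± 0.809 FPKM (adjusted p = 0.0292). Mef2c, a MADS-box factor of muscle genes, had 0.709 times its vehicle mean (adjusted p = 0.0145). Gata4 and Nkx2-5, factors of heart muscle identity, stood at 129 and 123 FPKM and at 123 and 130.2 FPKM and did not pass. Irx4, Tbx5, Hey2 and Mef2a (0.787-fold, 0.772-fold, 0.862-fold and 0.892-fold) did not pass either. Every perhexiline library lay below every vehicle library in these, in Gata4 (0.952-fold) and in the called Mef2c and Thra. Across all tested genes this held for 14.9%, and whether the list differs from that share was not tested. The groups of the list's other uncalled factors overlapped.

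The neighbouring filament systems of the sarcomere were counted the same way. Of 11 tested thin filament genes 3 fell and 0 rose (Nebl, Tnni3 and Tpm1), with a median of -0.42, and of 13 tested Z-disc genes 5 fell and 0 rose, with a median of -0.20, among them Fhl2, Ldb3, Nexn and Actn2. Tnni3, cardiac troponin I, went from 1064 ± 82.7 to 799 ± 77.8 FPKM (adjusted p = 0.0373), and Tpm1, alpha-tropomyosin, from 849.8 ± 57.8 to 636 ± 81.5 FPKM (adjusted p = 0.0461). Whether the members differed from these lists was not tested. Over the 6 fits without 1 library, Ldb3 and Fhl2 passed in all. The Nebl call was lost when vehicle replicate 1 was left out (0.0503), that of Nexn when perhexiline replicate 3 was left out (0.0542), Mef2c in both of these fits (up to 0.0604), and Dcn in the same fits and without perhexiline replicate 2 (up to 0.0600). Ckm, Trim55, Mylk3, Ppp1r12b, Prkaca, Tnni3, Tpm1, Actn2, Col3a1, Pdgfra and Mrc1 were each lost on leaving out any of the vehicle replicates 1 and 2 and the perhexiline replicates 2 and 3 (up to 0.139, for Tpm1). Smyd1, Unc45b, Thra and C1qa passed in 1 fit (up to 0.144, for C1qa) and Kcnj3 in 0 (up to 0.121).

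By Euclidean distance of mean-centred log2(FPKM + 1) over the 6 libraries, the 3 nearest of 6585 genes with a mean of at least 10 FPKM were Pfkm, Actn4 and Akap12 for Myh6 (distances 0.0499, 0.0624 and 0.0673). Pfkm, the muscle phosphofructokinase, averaged 79.8 and 59.1 FPKM, Actn4, a nonmuscle alpha-actinin, 263 and 204 FPKM, and Akap12, a kinase anchoring protein, 16.6 and 12.5 FPKM in vehicle and perhexiline libraries. The distance uses the shift between the groups, so these levels describe the choice and were not taken as tests. For Myh7 they were Tuba1a, Pck2 and Creld2 (distances 0.08, 0.108 and 0.127). Tuba1a, an alpha-tubulin, averaged 152 FPKM with vehicle and 154 FPKM with perhexiline.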

How the data were processed

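Poly(A) RNA of neonatal rat ventricular cardiomyocytes was sequenced as read pairs, per the labels' protocols, in 3 vehicle and 3 perhexiline libraries. The authors deposited FPKM values, per the file headers, with gene lengths and coordinates. The submitters' processing notes list HISAT2 2.0.5 and DESeq2 without saying what each did; the sources used here name no build, annotation or counting program. FPKM times gene length gave whole multiples of 1 step per library for 100% of positive values (tolerance 0.01), taken as fragments. With limma 3.58.1 (R 4.3.3; mean-variance trend, group as the only term, two-sided), log2(FPKM + 1) was fitted for genes of at least 1 FPKM in at least 3 libraries, after a check on simulated data, and genes were called at an adjusted p of 0.05. This scale understates changes of low genes. Ratios had exact permutation tests in scipy 1.17.1. Called list genes with the smallest adjusted p were named (up to 4 per list, or the 2 most abundant). Members and lists were chosen with earlier results of these data known. Genes named outside this rule were chosen after their values were seen. Of the list genes, Ttn was not analysed here, and Myh2, Myh4, Myh13, Myl6b, Tcap and Pecam1 had no row under these symbols. Further list genes did not reach the filter.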

Additional observations from a re-analysis of the deposited data

How the results depend on the processing

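The count of called members was 3, all lower. It was 2 with a pseudocount of 0.1, 4 with a mean FPKM of at least 5 and with limma-voom, 3 under each other scaling, and 0 with no filter on low values, where 162 of all genes passed. Without 1 library it ranged from 0 to 4, with 0 on leaving out any of the vehicle replicates 1 and 2 and the perhexiline replicate 3, 1 without perhexiline replicate 2, 3 without perhexiline replicate 1 and 4 without vehicle replicate 3, while the 896 calls among all genes ranged from 87 to 841 and were 1562 with limma-voom. Total-fragment scaling made 70.8% of calls higher, against 53.4% in the deposited scaling, and the median of all genes moved to 0.06. Log2 differences that changed sign were those of Myh7 (0.03945 with total-fragment scaling, 0.07615 without vehicle replicate 1, 0.0343 and 0.01891 without perhexiline replicates 2 and 3, and -0.1244 without vehicle replicate 3 as the lowest over the fits without 1 library), Myom2 (-0.001617 with upper-quartile scaling, -0.0379 without vehicle replicate 3, -0.0162 without perhexiline replicate 3; the highest over the same fits was 0.06643, without vehicle replicate 2, beside 0.07164 with total-fragment scaling), Creld2 (0.01569 with total-fragment scaling, 0.01861 without vehicle replicate 1, 0.01854 without perhexiline replicate 2; the lowest was -0.1089, without perhexiline replicate 1), Tuba1a (-0.09168 and -0.04777) and Pck2 (-0.05524 and -0.06134), each without vehicle replicate 3 and perhexiline replicate 1 in that order (their highest were 0.1231 and 0.08512, without vehicle replicate 1). None of these was called under any setting, and the cause was not tested. Of the 4 ratios none changed direction in the 8 alternatives run on each. Adding the replicate number as a block left 0 called members (Myom1 0.0505, Myl2 0.0591, Myh6 0.0841), no call of Mir3546 (0.0516) and 173 calls in all. For the Myh6 to Myh7 ratio a two-sided sign-flip test over the 3 pairs gave 0.25, the smallest p it can give, so it could not have passed. The deviations of same-numbered libraries correlated at -0.0228, -0.101 and -0.0387, and 0 of 6 libraries correlated best with its own number, so the number is not known to pair samples. Alternatives for genes that are not members were added after seeing the data. The hairpin rows Mir208b and Mir3546 rest on 21 to 81 fragments per library and Mir499a on 0 or 1.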
